A study of Homo sapiens with 6 samples.

Results

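The 10 genes described here are part of the retinoic acid pathway: the receptors RARA, RARB, RARG, RXRA and RXRB, the binding proteins CRABP1 and CRABP2, the degrading enzymes CYP26A1 and CYP26B1, and the homeobox gene MEIS2. They were taken by name from RNA-seq tables that list 35130 gene names, and all 10 were found. The cells were SK-N-BE(2), an established human neuroblastoma line with extra copies of the oncogene MYCN, labelled as of bone marrow origin. NEN-treated cells received 1 µM NEN for 24 h and control cells received the solvent DMSO for 24 h, with 3 libraries in each group that the labels call biological replicates. The labels give NEN by its abbreviation only; in work on neuroblastoma the letters stand for niclosamide ethanolamine, a mitochondrial uncoupler, and that reading is background here. All cells grew in medium with fetal bovine serum, and the labels name no added retinoid. Values are TPM, transcript abundances scaled for transcript length and library total, so levels of different genes can be set side by side, while sequencing depth is unknown. The p-values measure the spread between these libraries. In bulk RNA, fewer cells that make a transcript and less of it per cell cannot be told apart.

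Retinoic acid is made from vitamin A and carried in the cytoplasm by the CRABP proteins. In the nucleus it binds retinoic acid receptors (RAR), which sit on DNA as heterodimers with retinoid X receptors (RXR), often at direct repeats of a short motif, and switch between corepressors and coactivators. CYP26 enzymes break retinoic acid down, and CYP26A1 and RARB are themselves classic targets of the receptors. Retinoic acid makes many neuroblastoma lines stop dividing and extend neurites, and an isomer of it is used to treat the disease.

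NEN-treated cells had more RARG, RARA and RXRB mRNA and less MEIS2 mRNA than DMSO-treated cells, while RARB, CYP26A1 and CYP26B1 lay near or below 1 TPM in both groups. Of the 10 genes, 7 had a mean of at least 1 TPM and were tested, and the lowest value of any of these in a library was 4.70 TPM (CRABP1). Of the 7, 3 rose and 1 fell at an adjusted p of 0.05 in limma, where 30.0% of all 12576 tested genes were called, 13.5% higher and 16.5% lower in NEN. The groups did not overlap for 5 of the 7, 4 of them higher and 1 lower in NEN, set beside 46.8% of all tested genes (21.8% higher and 25.0% lower). The calls of RARG and MEIS2 held under all 15 alternative settings, and those of RARA and RXRB did not. The number called was 2 without NEN replicate 2, NEN replicate 3, DMSO replicate 2 or DMSO replicate 3, and these were RARG and MEIS2 each time. The median log2 fold change was 0.42 over the 7 genes and -0.02 over all tested genes.

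**Figure D1:**
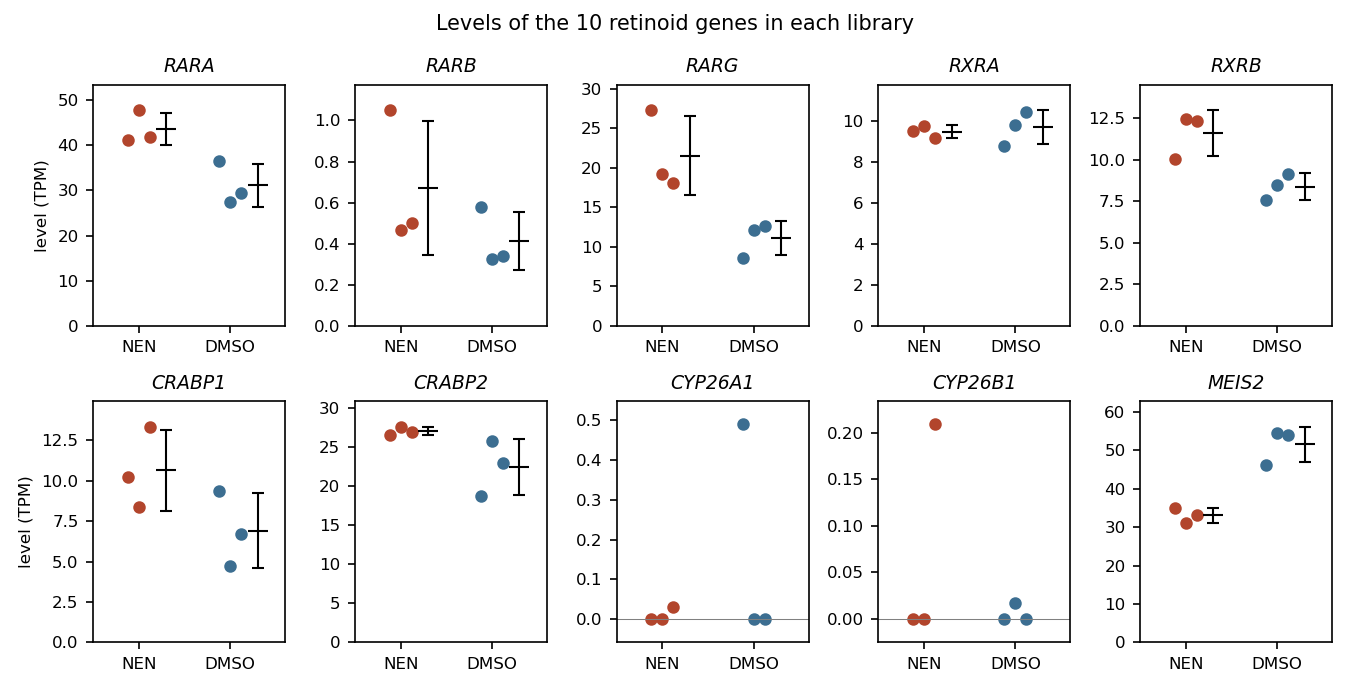
Level in TPM of each of the 10 genes in the 3 NEN libraries (left in each panel) and the 3 DMSO libraries (right), 1 point per library, with mean and SD beside them except for the CYP26 genes, which are listed at 0 in most libraries. RARA, RARG, RXRB and CRABP2 lie higher and MEIS2 lower in NEN without overlap, while the other genes overlap; each panel has its own scale.

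RARA, the RAR form found in most tissues, had 41.1, 47.7 and 41.9 TPM in NEN libraries, against 36.5, 27.4 and 29.5 TPM in DMSO libraries. Every NEN library lay above every DMSO library, and DMSO replicate 1 was the highest of its group. The log2 fold change, taken as NEN minus DMSO of log2(TPM + 1), was 0.48 ± 0.12 (SE, adjusted p = 0.0225). RARA lost its call without NEN replicate 2 (0.413), NEN replicate 3 (0.505), DMSO replicate 2 (0.394) or DMSO replicate 3 (0.446), and over all 15 alternatives its adjusted p ran between 0.00677 and 0.130.

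RARG, the form best known from skin and cartilage, had 27.3, 19.2 and 18.1 TPM in NEN libraries, against 8.64, 12.1 and 12.6 TPM in DMSO libraries. NEN replicate 1 stood highest and DMSO replicate 1 lowest, and the groups did not overlap. The mean was 21.5 ± 5.0 TPM in NEN and 11.1 ± 2.2 TPM in DMSO cells (SD, n = 3 each), a log2 fold change of 0.89 ± 0.19 (adjusted p = 0.0136). Of the tested genes, 387 had a larger rise. Without NEN replicate 1 the fold change was 0.712 and without DMSO replicate 1 it was 0.731, both with the call kept; its adjusted p ran between 0.00955 and 0.0458 over the alternatives.

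RARB, the form that retinoic acid itself induces, had 1.05, 0.469 and 0.499 TPM in NEN libraries, against 0.579, 0.326 and 0.339 TPM in DMSO libraries. The groups overlapped, and replicate 1 was highest in both. It lay below the filter, and with no filter its log2 fold change was 0.23 ± 0.20 (limma adjusted p = 0.521). Exons of RARB overlap exons of TOP2B on the opposite strand in GENCODE release 29. Whether the libraries kept strand is not given in the sources used here, so reads over that stretch may belong to either gene.

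Summed over the 3 forms, RAR mRNA came to 69.4, 67.4 and 60.4 TPM in NEN libraries, against 45.75, 39.8 and 42.45 TPM in DMSO libraries, without overlap. RARA made up 59.2% to 70.8% of that sum in NEN and 68.8% to 79.8% in DMSO libraries. RARG supplied 39.25%, 28.5% and 29.9% in NEN libraries and 18.9%, 30.4% and 29.7% in DMSO libraries. The share of RARG overlapped between the groups, with replicate 1 standing apart in both, highest in NEN and lowest in DMSO. RARB was at most 1.51% of the sum in any library.

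Of the RXR partners, RXRB had 10.0, 12.4 and 12.4 TPM in NEN libraries, against 7.55, 8.46 and 9.13 TPM in DMSO libraries. NEN replicate 1 was the lowest of its group and still above every DMSO library. The log2 fold change of RXRB was 0.42 ± 0.13 (adjusted p = 0.0435). It lost its call under 9 of 15 alternatives, among them without NEN replicate 2 (0.375), NEN replicate 3 (0.380), DMSO replicate 1 (0.359), DMSO replicate 2 (0.432) or DMSO replicate 3 (0.481); its adjusted p ran between 0.0377 and 0.131. RXRB also overlaps exons of SLC39A7 on the opposite strand. Exons of RARA, CRABP1 and MEIS2 overlap opposite-strand exons as well, of genes that have no value in these data.

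RXRA had 9.52, 9.77 and 9.17 TPM in NEN libraries, against 8.81, 9.81 and 10.5 TPM in DMSO libraries, and the groups overlapped. The log2 fold change was -0.03 ± 0.11 (adjusted p = 0.884), with a 95% interval between -0.281 and 0.230. RXRG, the form typical of muscle and brain and not among the 10 genes, was listed at 0 in all 6 libraries. RXRB was 51.3% to 57.4% of summed RXR mRNA in NEN libraries and 46.1% to 46.6% in DMSO libraries. The sum itself overlapped, at 19.6 to 22.2 TPM in NEN and 16.4 to 19.6 TPM in DMSO libraries. Summed RAR mRNA was 3.55, 3.03 and 2.81 times summed RXR mRNA in NEN libraries and 2.80, 2.18 and 2.17 times in DMSO libraries.

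**Figure D2:**
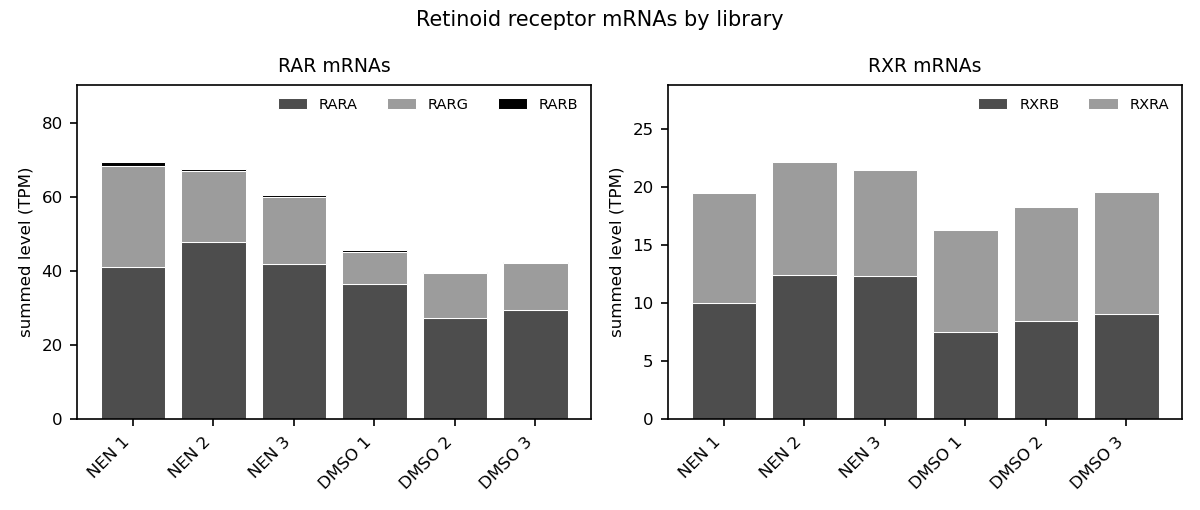
Stacked levels in TPM of RARA, RARG and RARB (left) and of RXRB and RXRA (right) in each library, with the NEN libraries left of the DMSO libraries. The RAR sum is 60.4 to 69.4 TPM in NEN and 39.8 to 45.75 TPM in DMSO libraries, and the RXR sums of the groups overlap.

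Of the binding proteins, CRABP2 hands retinoic acid to RAR in the nucleus. CRABP2 had 26.5, 27.6 and 27.0 TPM in NEN libraries, against 18.7, 25.8 and 23.0 TPM in DMSO libraries. The groups did not overlap, but the DMSO libraries were widely spread, and the log2 fold change of 0.27 ± 0.12 did not pass (adjusted p = 0.136, 95% interval -0.014 to 0.546). CRABP1, which holds retinoic acid in the cytoplasm, had 10.2, 8.36 and 13.3 TPM in NEN libraries, against 9.35, 4.70 and 6.68 TPM in DMSO libraries. The ranges overlapped through DMSO replicate 1. Its log2 fold change was 0.58 ± 0.25 (adjusted p = 0.120). CRABP1 passed without DMSO replicate 1 (0.792, adjusted p = 0.0431) and under no other of the 15 alternatives, over which the adjusted p ran between 0.0431 and 0.302. CRABP2 mRNA was 2.03 to 3.30 times CRABP1 mRNA in NEN libraries and 2.00 to 5.49 times in DMSO libraries.

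CYP26A1, the retinoic acid hydroxylase whose induction is a standard sign of active RAR, was listed at 0, 0 and 0.0293 TPM in NEN libraries and at 0.489, 0 and 0 TPM in DMSO libraries. CYP26B1, a second hydroxylase of the family, was listed at 0, 0 and 0.209 TPM in NEN libraries and at 0, 0.0177 and 0 TPM in DMSO libraries. Each gene was thus above 0 in 1 NEN and 1 DMSO library, and no library reached 0.5 TPM for either. Since TPM holds no counts and the depth is unknown, the highest level that a listing at 0 could hide cannot be given.

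The promoters of the members show which of them carry the letters of a retinoid response element close to the start. RefSeq windows on build GRCh38.p14, from 250 bases before a gene's start to 50 after it, were matched for all 10 genes. Both strands were searched for the motifs AGGTCA (and its variant AGTTCA) as well as GGGTCA (and its variant GGTTCA) and for direct repeats of any of these with 1, 2 or 5 bases between. The repeat with 5 bases between, the classic spacing of RAR and RXR, was found in 1 window of RARB and 1 window of CYP26A1 and in no other window of the 10 genes; 31 of 35116 windows (0.0883%) held one. In RARB it was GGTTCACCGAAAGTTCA on the gene's strand, from base -53 to base -37 before the start. In CYP26A1 it was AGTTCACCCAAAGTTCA on the opposite strand, from base -90 to base -74. These windows are shown with the repeat in capitals (CYP26A1 as read on the gene's strand), followed by windows of RARG and MEIS2, the genes whose calls held throughout, in which none of the motifs was found.
RARB window, chr3:25428013-25428312, + strand: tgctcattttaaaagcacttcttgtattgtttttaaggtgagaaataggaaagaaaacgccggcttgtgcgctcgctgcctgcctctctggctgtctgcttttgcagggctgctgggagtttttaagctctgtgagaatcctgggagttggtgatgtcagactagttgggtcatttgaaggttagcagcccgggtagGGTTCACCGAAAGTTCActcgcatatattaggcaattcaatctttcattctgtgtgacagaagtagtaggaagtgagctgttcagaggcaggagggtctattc
CYP26A1 window, chr10:93073643-93073942, + strand: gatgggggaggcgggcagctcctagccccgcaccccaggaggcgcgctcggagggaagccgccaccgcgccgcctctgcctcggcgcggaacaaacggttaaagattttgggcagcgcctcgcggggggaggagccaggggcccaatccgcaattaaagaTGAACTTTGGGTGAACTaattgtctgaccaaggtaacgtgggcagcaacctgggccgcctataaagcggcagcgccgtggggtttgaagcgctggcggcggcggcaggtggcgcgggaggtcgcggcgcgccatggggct
RARG window, chr12:53232160-53232459, - strand: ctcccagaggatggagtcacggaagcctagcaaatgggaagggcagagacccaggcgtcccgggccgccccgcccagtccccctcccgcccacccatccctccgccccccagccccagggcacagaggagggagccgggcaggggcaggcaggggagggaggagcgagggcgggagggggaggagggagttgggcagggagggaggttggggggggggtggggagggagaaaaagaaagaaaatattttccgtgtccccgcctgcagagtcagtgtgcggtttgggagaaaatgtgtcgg
MEIS2 window, chr15:37099057-37099356, - strand: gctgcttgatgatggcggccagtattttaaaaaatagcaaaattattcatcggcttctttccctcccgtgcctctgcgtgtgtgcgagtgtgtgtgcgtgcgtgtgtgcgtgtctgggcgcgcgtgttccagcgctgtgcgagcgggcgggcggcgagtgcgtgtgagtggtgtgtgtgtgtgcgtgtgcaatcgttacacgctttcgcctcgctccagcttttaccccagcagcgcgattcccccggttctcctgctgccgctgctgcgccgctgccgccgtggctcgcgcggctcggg

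No direct repeat with 1 or 2 bases between was found in any window of the 10 genes. Single copies of the motifs stood in windows of RARA, RXRA and CRABP2 and in other windows of RARB. The RARB window with the repeat also held a single GGGTCA, from base -83 to base -78. Of all windows 38.6% held at least 1 copy. Repeats with 5 bases between fell in windows of 29 genes, of which 15 are listed in the tables and 5 were tested. Of these 5, 0 rose and 1 fell in limma (0 rose and 2 fell at an unadjusted p under 0.05), beside 30.0% of all tested genes called. A match of letters is not a measured binding site, and a window without one says nothing about sites elsewhere.

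MEIS2 encodes a homeodomain protein of the TALE class that partners HOX and PBX proteins on DNA, is needed for the growth of neuroblastoma lines and responds to retinoic acid in limb and neural tissue. It had 34.9, 31.2 and 33.2 TPM in NEN libraries, against 46.3, 54.5 and 53.9 TPM in DMSO libraries. All NEN libraries lay below all DMSO libraries, and DMSO replicate 1 was the lowest of its group. The mean was 33.1 ± 1.9 TPM in NEN and 51.6 ± 4.6 TPM in DMSO cells (SD, n = 3 each), a ratio of 0.642. The log2 fold change was -0.62 ± 0.09 (adjusted p = 0.00289), and over the 15 alternatives it lay between -0.696 and -0.516 with adjusted p-values between 0.00197 and 0.0159. Of the tested genes, 927 had a larger fall.

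The MEIS2 relatives MEIS3 and PBX2 rose. Of 8 tested genes in a list of 10 other TALE genes, 3 rose and 0 fell in limma. At an unadjusted p under 0.05, 4 rose and 0 fell, and the median log2 fold change was 0.45. The share called was 37.5%, beside 30.0% of all tested genes. MEIS3 had 15.3, 19.4 and 13.2 TPM in NEN libraries, against 5.50, 5.35 and 6.34 TPM in DMSO libraries, a log2 fold change of 1.32 ± 0.16 (adjusted p = 0.00142). PBX2, a cofactor of MEIS and HOX proteins, averaged 21.0 ± 1.8 TPM in NEN and 11.9 ± 0.9 TPM in DMSO cells (0.77 ± 0.11, adjusted p = 0.00249). MEIS2 made up 54.0%, 48.4% and 58.0% of summed MEIS1, MEIS2 and MEIS3 mRNA in NEN libraries and 76.8%, 78.1% and 74.8% in DMSO libraries. The sum itself overlapped, at 64.65, 64.4 and 57.2 TPM in NEN libraries and 60.3, 69.75 and 72.1 TPM in DMSO libraries.

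In order of level, the NEN cells had RARA first, then MEIS2, CRABP2, RARG, RXRB, CRABP1, RXRA and RARB, and the DMSO cells had MEIS2 first, then RARA, CRABP2, RARG, RXRA, RXRB, CRABP1 and RARB, with the CYP26 genes last in both. In NEN cells the ranges of neighbours overlapped between CRABP2 and RARG, between RXRB and CRABP1, between CRABP1 and RXRA, and between CYP26B1 and CYP26A1. In DMSO cells they overlapped all along the run RARG, RXRA, RXRB and CRABP1, between RARB and CYP26A1, and between CYP26A1 and CYP26B1. RARA lay at the 75th percentile of tested genes in NEN cells and the 66th in DMSO cells, and MEIS2 at the 69th in NEN cells and the 78th in DMSO cells.

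**Figure D3:**
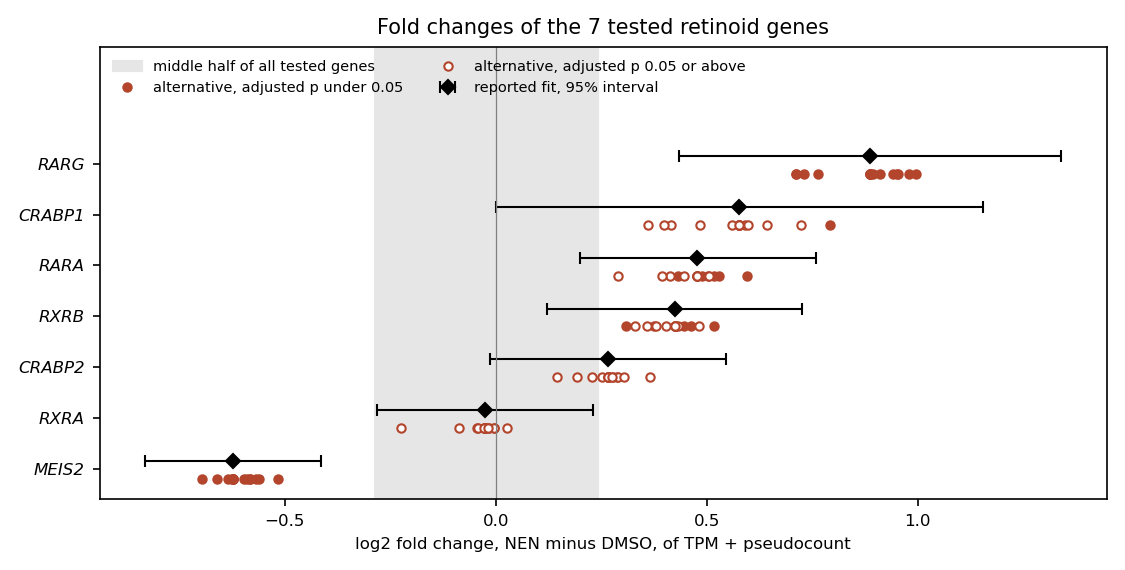
Log2 fold change, NEN minus DMSO, of the 7 tested genes, with its 95% interval (black) and the values under the alternative settings (circles, filled where the adjusted p stayed under 0.05); the grey band is the middle 50% of all tested genes. RARG and MEIS2 have filled circles only, RARA and RXRB have both kinds, and the values of RXRA lie on both sides of 0.

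The fold changes of all genes leaned on the base composition of the transcript. When the tested genes were cut into 5 equal bins by GC content, 27.0% rose and 9.33% fell in the highest bin, and in the lowest 5.07% rose and 20.1% fell. The 4 tested receptors lie toward the rich end, with 63.0% GC for RARA, 63.2% for RXRA, 60.02% for RARG and 58.5% for RXRB. RARB, which was not tested, has 42.6%, and MEIS2 lies at the poor end with 40.9%. With each library's trend over length and GC content removed, RARG had a log2 fold change of 0.763 (adjusted p = 0.0181) and MEIS2 of -0.516 (adjusted p = 0.00346). RARA then had 0.291 (adjusted p = 0.130) and RXRB 0.331 (adjusted p = 0.0884), neither past the threshold, and RXRA had -0.225 (adjusted p = 0.115).

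**Figure D4:**
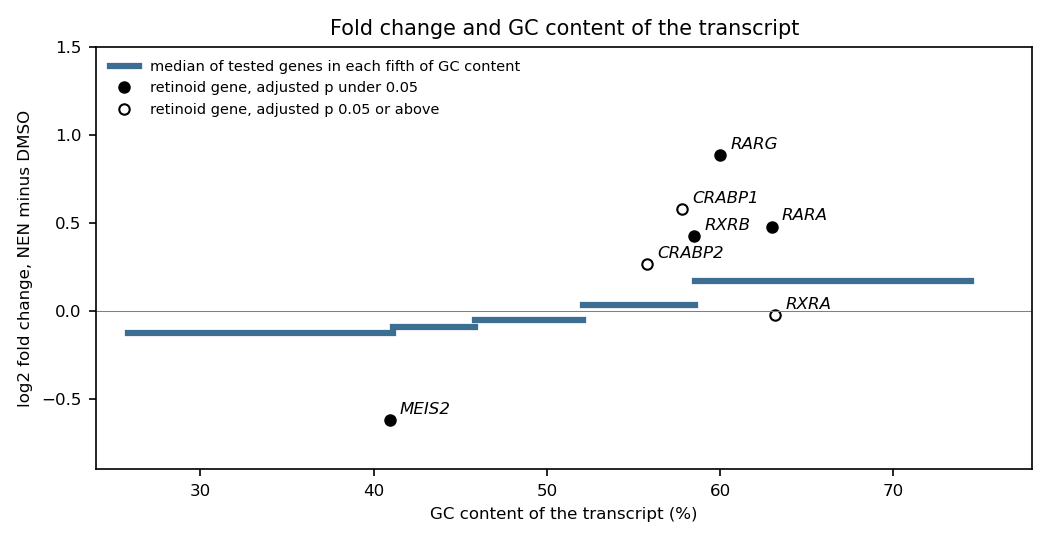
Log2 fold change, NEN minus DMSO, of the 7 tested retinoid genes (points, filled where the adjusted p is under 0.05) by GC content of the transcript in percent, with the median of all tested genes in each of 5 equal bins of GC content (blue lines). The medians run between -0.13 in the lowest bin and 0.17 in the highest, and RARG lies farthest from the line of its own bin, followed by CRABP1 and MEIS2.

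Among genes that bring in vitamin A, carry retinoids and make retinoic acid, STRA6, FABP5 and RDH11 fell. Of 24 listed genes 11 were tested. In limma 3 fell and 0 rose (3 fell and 1 rose at an unadjusted p under 0.05), with a median log2 fold change of -0.31. The share called was 27.3%, beside 30.0% of all tested genes. STRA6, the membrane receptor that takes up retinol, had 126.8, 127.4 and 125.4 TPM in NEN libraries, against 176.4, 161.0 and 170.2 TPM in DMSO libraries (-0.42 ± 0.05, adjusted p = 0.00211). FABP5, which can carry retinoic acid to the receptor PPARD, averaged 319.8 ± 2.5 TPM in NEN and 470.6 ± 40.7 TPM in DMSO cells (-0.55 ± 0.07, adjusted p = 0.00176). FABP5 has near-identical pseudogene copies, so its level is uncertain where reads were split among them. RDH11, a retinal reductase, fell by 0.31 ± 0.06 (adjusted p = 0.00872). FABP5 mRNA was 12.2, 11.5 and 11.85 times CRABP2 mRNA in NEN libraries and 22.7, 19.6 and 20.95 times in DMSO libraries, without overlap.

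The synthesizing dehydrogenases ALDH1A1, ALDH1A2 and ALDH1A3 were all under the filter, between 0 and 1.40 TPM in NEN libraries and between 0 and 1.06 TPM in DMSO libraries; they were named after their values were seen. DHRS3, a retinal reductase that retinoic acid induces, also lay under the filter and was named after its values were seen. It had 1.37, 0.820 and 0.434 TPM in NEN libraries, against 0.1003, 0.154 and 0.0339 TPM in DMSO libraries, and the groups did not overlap. Its difference was not tested, and 21.8% of all tested genes lay higher in NEN without overlap. Other pathway genes under the filter went both ways without overlap. PBX4, CDX1 and HIC1 lay higher in NEN, and HOXA5 and DLX5 lay lower. They too were named after their values were seen and were not tested.

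Among other nuclear receptors that pair with RXR or compete for its sites, 4 of 11 tested rose and 0 fell in limma. At an unadjusted p under 0.05, 5 rose and 0 fell, and the median was 0.24. The share called was 36.4%, beside 30.0% of all tested genes. THRA, a thyroid hormone receptor, averaged 43.4 ± 0.8 TPM in NEN and 24.5 ± 2.2 TPM in DMSO cells (0.81 ± 0.09, adjusted p = 0.00102). NR1H2, the oxysterol receptor LXR beta, rose by 0.58 ± 0.10 (adjusted p = 0.00654) and the orphan receptor NR4A1 by 0.93 ± 0.11 (adjusted p = 0.00166). PPARA, a fatty acid receptor, rose by 0.77 ± 0.22 (adjusted p = 0.0340), a call lost without NEN replicate 1 (0.720), NEN replicate 2 (0.672), DMSO replicate 1 (0.567) or DMSO replicate 2 (0.816), and also with no filter (0.772, adjusted p = 0.0771), with limma's plain settings (0.772, adjusted p = 0.0518) and with a replicate block (adjusted p = 0.0683).

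Coregulators of the receptors moved both ways: 4 of 21 tested rose and 5 fell, with a median of -0.12. The share called was 42.9%, beside 30.0% of all tested genes. NCOR1, the corepressor bound by RAR without ligand, averaged 42.4 ± 2.4 TPM in NEN and 57.4 ± 4.4 TPM in DMSO cells (-0.43 ± 0.08, adjusted p = 0.00815). The coactivator genes CREBBP (-0.41 ± 0.08, adjusted p = 0.00836) and MED1 (-0.43 ± 0.09, adjusted p = 0.0100) fell, and so did EZH2, the histone methyltransferase of Polycomb (-0.65 ± 0.08, adjusted p = 0.00140). ZNF423, a zinc finger protein needed for the response of neuroblastoma cells to retinoic acid, had 8.48, 6.86 and 9.02 TPM in NEN libraries, against 4.89, 3.84 and 3.70 TPM in DMSO libraries (0.83 ± 0.16, adjusted p = 0.00796). CARM1, an arginine methyltransferase, rose by 0.37 ± 0.07 (adjusted p = 0.00690), a call lost after the length and GC correction (0.201).

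HOX genes at the ends of the clusters that answer first to retinoic acid lay mostly below 1 TPM, with 10 of 15 under the filter. HOXA2, HOXB1 and HOXB4 were listed at 0 in all 6 libraries. Of 5 tested genes 2 rose and 0 fell in limma (likewise at an unadjusted p under 0.05), with a median of 0.12. The share called was 40%, beside 30.0% of all tested genes. HOXC4 averaged 60.5 ± 3.0 TPM in NEN and 37.4 ± 1.6 TPM in DMSO cells (0.68 ± 0.07, adjusted p = 0.000981). HOXC5 had 0.36 ± 0.11 (adjusted p = 0.0388), a call lost without NEN replicate 1 (0.393), NEN replicate 2 (0.344), NEN replicate 3 (0.346), DMSO replicate 2 (0.354) or DMSO replicate 3 (0.316), and also after quantile normalization (adjusted p = 0.0510), after the length and GC correction (0.273, adjusted p = 0.0944), when low genes were kept (adjusted p = 0.0632) and with a replicate block (adjusted p = 0.0928). These neighbours share an upstream exon in some transcripts, so their reads may be split.

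Other genes known to respond to retinoic acid went in both directions, with 6 of 22 tested up, 5 down and a median of 0.01. In this list 50% were called, beside 30.0% of all tested genes. BHLHE40, a transcriptional repressor first found as a retinoic acid target in mouse cells, averaged 3.34 ± 0.23 TPM in NEN and 1.27 ± 0.23 TPM in DMSO cells (0.94 ± 0.18, adjusted p = 0.00851). ID1, an inhibitor of basic helix-loop-helix factors, rose by 1.11 ± 0.12 (adjusted p = 0.00123) and its relative ID3 by 0.31 ± 0.06 (adjusted p = 0.00671). RET, a receptor tyrosine kinase that retinoic acid raises in neuroblastoma lines, fell by 0.69 ± 0.05 (adjusted p = 0.000295). CDKN1A, which encodes the cell cycle inhibitor p21, fell by 0.51 ± 0.08 (adjusted p = 0.00358). Over these 6 lists together 19 of 78 tested genes rose and 13 fell, so 41.0% were called beside 30.0% of all tested genes. The lists were chosen with earlier results of these data known, and the difference between these shares was not tested.

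**Figure D5:**
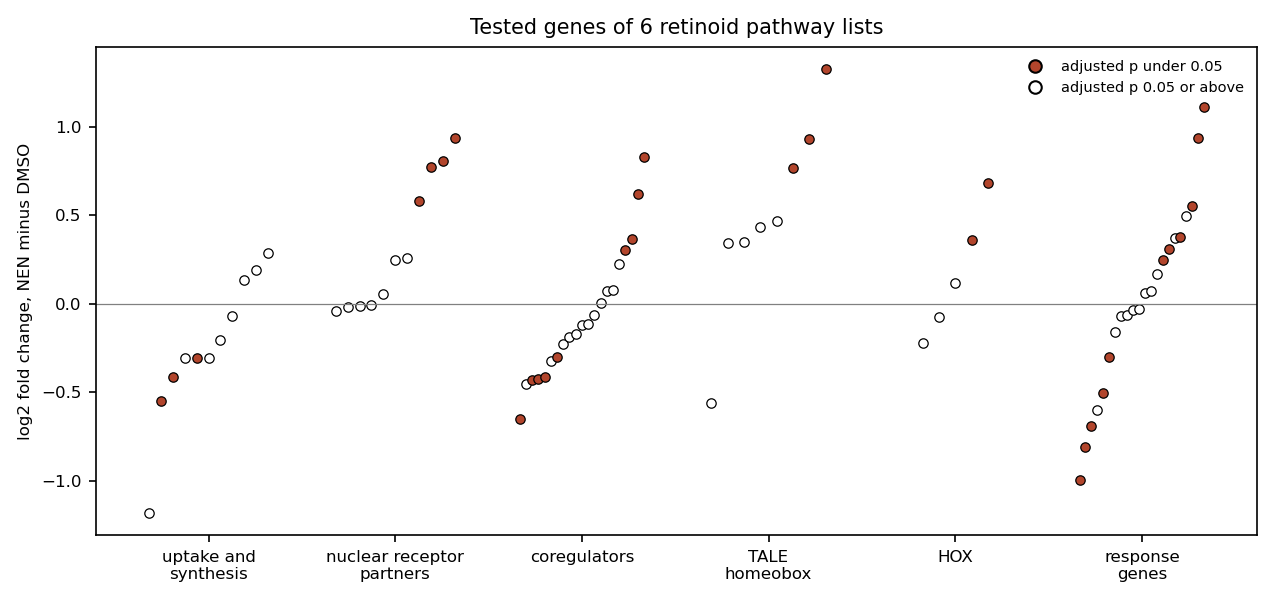
Log2 fold change, NEN minus DMSO, of each tested gene in 6 lists of the retinoid pathway, 1 point per gene, filled where the adjusted p is under 0.05. No gene past the threshold lies above 0 in the uptake and synthesis list or below 0 in the partner, TALE and HOX lists, and both directions occur among coregulators and response genes.

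The label of neuroblastoma cells was checked against markers. All 10 markers of adrenergic neuroblastoma were expressed. They summed to 6313 to 6484 TPM in NEN and 5235 to 6163 TPM in DMSO libraries. Of the 10, 6 rose and 0 fell in limma (likewise at an unadjusted p under 0.05). Of all tested genes 13.5% rose and 16.5% fell. The 8 markers of mesenchymal neuroblastoma summed to 316.6 to 353.9 TPM in NEN and 232.8 to 248.9 TPM in DMSO libraries, and 2 of 4 tested rose; most of the sum was VIM, with 321.4, 295.6 and 316.7 TPM in NEN libraries, against 225.9, 213.2 and 217.6 TPM in DMSO libraries. The 8 fibroblast and endothelial markers summed to 26.5 to 32.6 TPM in NEN and 17.8 to 20.7 TPM in DMSO libraries, and 1 of 4 tested rose. That gene was PDGFRB, with 24.3, 22.5 and 19.3 TPM in NEN libraries, against 9.27, 8.59 and 12.6 TPM in DMSO libraries, while the median log2 fold change of the tested members of the list was -0.19. Their part in the retinoid results was not tested. The 9 markers of bone marrow blood cells summed to 0.310 to 0.413 TPM in NEN and 0.593 to 1.01 TPM in DMSO libraries, with CD3E, HBB and MPO at 0 throughout. Listed genes summed to between 929054 and 933500 TPM per library and 17285 to 18041 genes lay above 0. DMSO replicate 1 lay farthest from its group, with an SD of 0.408 for the log2 difference from the mean of the other DMSO libraries, set beside 0.348 to 0.372 for the other 5 libraries.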

How the data were processed

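The 6 libraries of SK-N-BE(2) RNA, 3 of NEN-treated and 3 of DMSO-treated cells, were grouped by the labelled treatment. Trizol was used for extraction, per the labels' protocols; whether polyA capture or rRNA removal was used is not settled there. The deposited values are TPM, 1 value per gene name, made by the authors with kallisto on hg19, per the submitters' processing notes; no versions are stated. Read counts cannot be had from TPM, and the depth of the libraries is therefore unknown.

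A filter kept 12576 genes whose mean reached 1 TPM. Values were taken as log2(TPM + 1), and limma 3.58.1 in R 4.3.3 was fitted to all of them with group as the only term, using its trend and robust options. P-values are two-sided, adjusted by Benjamini-Hochberg over the 12576 genes, and called under 0.05. The fit was tested on simulated data. The members, the 10 other gene lists (170 names with the members, all found under their symbol) and the settings were chosen with earlier results of these data known. Named are all members, RXRG and up to 6 called genes per list with the smallest adjusted p; genes named after their values were seen are marked. The results of some list genes, which stay in the counts, are not reported here.

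Tried in turn were 15 alternatives: each library left out, a replicate block, no filter, a minimum of 5 TPM, median-ratio scaling, quantile normalization, plain limma settings, pseudocounts of 0.1 and 5, and, added after seeing the data, a loess correction (span 0.3, degree 1) for transcript length and GC content from GENCODE release 29, known for 93.4% of tested genes. Promoter windows are RefSeq's on GRCh38.p14, which is not the build of the files; they were used for their sequence only. Plots were made in Python 3.11.15 with matplotlib 3.10.9.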

Additional observations from a re-analysis of the deposited data

How the results depend on the processing

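RARG, MEIS2, RXRA and CRABP2 kept their side of the threshold under all 15 alternatives, and RARG, MEIS2 and CRABP2 kept their direction too. The fold change of RXRA, which was not called under any setting, changed sign without DMSO replicate 3 (0.026). Of 105 values for the 7 tested members, 88 stayed on the same side of the threshold, which includes genes called in neither fit. Another 16 lost a call, 1 gained one and 0 were called in the opposite direction. RARA kept its call under 8 of the 15 alternatives and RXRB under 6. The number of members called was 4, and it was 2 with no filter, 2 after the length and GC correction and 2 to 4 when 1 library was left out. RARA lost its call with no filter (0.478) and after the length and GC correction (0.291), and ran between 0.394 and 0.595 when 1 library was left out. RXRB lost it with no filter (0.424), quantile normalization (0.404) and the length and GC correction (0.331), and ran between 0.359 and 0.518 when 1 library was left out. CRABP1 ran between 0.362 and 0.792 and gained a call without DMSO replicate 1. With no filter 21607 genes were tested. The cause of the losses was not tested under any setting.

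Same-numbered libraries showed almost no shared deviation across all tested genes (r = 0.0117, -0.00755 and -0.0279 for replicates 1 to 3). A correlation over all genes cannot exclude pairing that touches only some of them. With the replicate block 2977 genes were called in place of 3773, and 2 members in place of 4: RARA (0.478, adjusted p = 0.0537) and RXRB (0.424, adjusted p = 0.0542) did not pass. Genes called higher in NEN numbered 1699, and 1063 without NEN replicate 1. For 78 other pathway genes, 1094 of 1157 values stayed on the same side of the threshold, called or not. Of the rest, 53 lost a call, 10 gained one and 0 were called in the opposite direction. The number of these genes called, 32, stayed between 25 and 32. Median-ratio scaling moved the share of calls that were higher to 49.1% and quantile normalization to 50.1%, against 45.03% as reported. The low levels of RARB, CYP26A1 and CYP26B1 and the unknown depth limit what can be said of them.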
